A study of Mus musculus with 28 samples.

Results

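The effect of the STAM model, fatty liver disease in mice made diabetic with streptozotocin and fed a high-fat diet, on liver RNA was compared between 10 and 4 weeks. For each gene the STAM effect at an age is the mean of the STAM livers minus the mean of the control livers on the log2 scale, and the quantity tested was the effect at 10 weeks minus the effect at 4 weeks. A positive difference therefore means that STAM minus control was greater at 10 weeks, whichever group moved. The comparison used 20 of the 28 samples of the series, 5 livers in each of 4 groups, and 15022 of 20416 genes, those above the 25th percentile of mean level in the tables of both ages. All mice were male C57BL/6. The 10-week STAM group had received streptozotocin as newborns and was fed a high-fat diet, and the 10-week controls had a control diet. The 4-week STAM group had the same treatment and is also labelled with the high-fat diet, and the 4-week controls had a control diet. The design text starts the high-fat diet at 4 weeks of age, whereas the labels give the 4-week STAM livers 4 weeks of that diet, so their time on the diet cannot be settled here. Age, time on the diet and the table in which the authors scaled the libraries change together and cannot be told apart. Nothing in the labels ties each library to a separate mouse. The p-values therefore rest on the spread among these samples alone, part of which may be technical.

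Streptozotocin destroys the insulin-producing beta cells of the pancreas, and a later high-fat diet adds fatty acid to a liver that receives little insulin. Insulin normally lowers glucose output and fat oxidation in hepatocytes. Between weaning and adulthood the liver of a male mouse also changes by itself: fetal and cell division genes are switched off, and pulses of growth hormone establish the adult male pattern of cytochromes P450 and urinary proteins. A difference of effects can come from either side, a change with age in the STAM livers or one in the controls, and both are given.

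Recovered reads per library were 16.2 to 25.3 M, and genes with reads numbered 14917 to 15142 in 10-week STAM livers, 14291 to 14506 in 10-week controls, 14918 to 15087 in 4-week STAM livers and 14304 to 14783 in 4-week controls. Hepatocyte markers were abundant in every library: the 19 core hepatocyte genes summed to 74240 to 91651 CPM, read counts scaled to a common library size, in 10-week STAM livers, 127956 to 154950 in 10-week controls, 156331 to 169604 in 4-week STAM livers and 181982 to 199823 in 4-week controls. Transcripts of Alb, serum albumin, took 4.07% ± 0.753 of reads in 10-week STAM livers, 6.44% ± 0.976 in 10-week controls, 9.22% ± 0.565 in 4-week STAM livers and 11.02% ± 0.646 in 4-week controls (SD, n = 5 each). Of 14 pancreatic acinar markers, 5 had no read in any library, Prss1 and Cpa1 among them. The library of 4-week control replicate 1 stood apart, with 403 of 10208 genes more than 2-fold from its group, against 199 for the next, 10-week control replicate 1. In that 4-week control the cell division list summed to 119 CPM, against a median of 622 CPM in its group. In bulk tissue, fewer cells of a type and less RNA per cell cannot be told apart.

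The STAM effect differed between the ages in 3011 of the 15022 genes (20% called, limma with Benjamini-Hochberg adjustment, two-sided), with a positive difference in 1335 (8.89%) and a negative one in 1676 (11.2%). Of these, 875 differed by at least 1 on the log2 scale, 633 upward and 242 downward. Most reflected a STAM effect found at 10 weeks alone: 2401 of the 3011 (79.7%) were called in the effect at 10 weeks and not at 4 weeks, 199 at 4 weeks alone, 195 at both ages in the same direction, 90 at both ages in opposite directions and 126 at neither. Taken alone, the STAM effect was called in 7198 genes at 10 weeks (47.9%, 25.2% higher and 22.7% lower) and in 1833 genes at 4 weeks (12.2%, 7.79% higher and 4.41% lower). The median size of the effect over all tested genes was 0.36 at 10 weeks and 0.18 at 4 weeks on the log2 scale. The per-replicate shifts of STAM livers from their control mean did not overlap between the ages in 2855 of the 3011 called genes, against 4675 (31.1%) of all tested genes. These shifts leave out the spread of the controls. The called genes were chosen on the same values, so the count is no separate evidence. Without 4-week control replicate 1 the count was 3802, and without that library, 10-week control replicate 1 and 10-week STAM replicate 5 together it was 3718. When libraries were scaled by their total reads, the median difference over all genes was 0.23, against 0.02 as reported, and 84.3% of 3437 called genes were positive, against 44.3% as reported, so directions are relative to the authors' scaling.

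**Figure D1:**
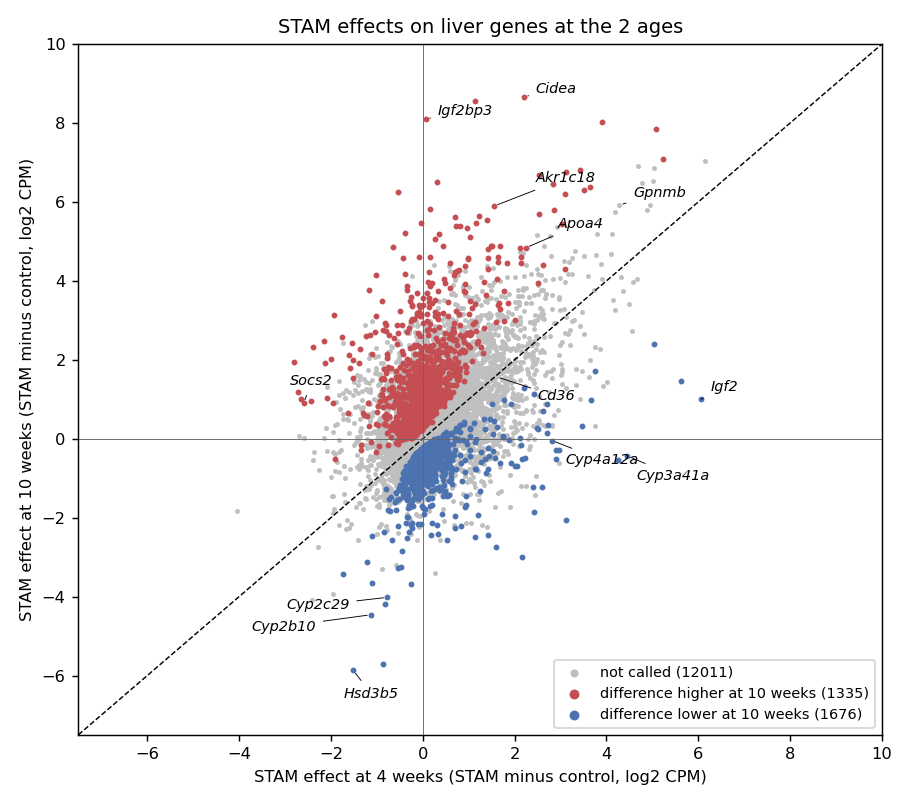
Each point is 1 of 15022 genes, with its STAM effect at 10 weeks on the vertical axis and at 4 weeks on the horizontal axis (STAM minus control, log2 CPM), and the dashed line marks equal effects. Red points are the 1335 genes with a positive difference and blue points the 1676 with a negative one; red lies above the line, for example Igf2bp3, and blue below it, for example Igf2 and Hsd3b5.

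Changes with age were split between the groups. Because the authors scaled the tables of the 2 ages separately, these levels are set side by side and were not tested. Among the 1335 genes with a positive difference, the median change from 4 to 10 weeks was 0.34 in STAM livers and -0.56 in controls, and the change in controls was the greater in 799 (59.9%). Among the 1676 with a negative difference the medians were -0.13 in STAM livers and 0.38 in controls, and the change in controls was the greater in 1213 (72.4%). Over all tested genes the share was 59.1%. On a scale common to both tables the shares were 67.6%, 60.8% and 58.1%.

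**Figure D2:**
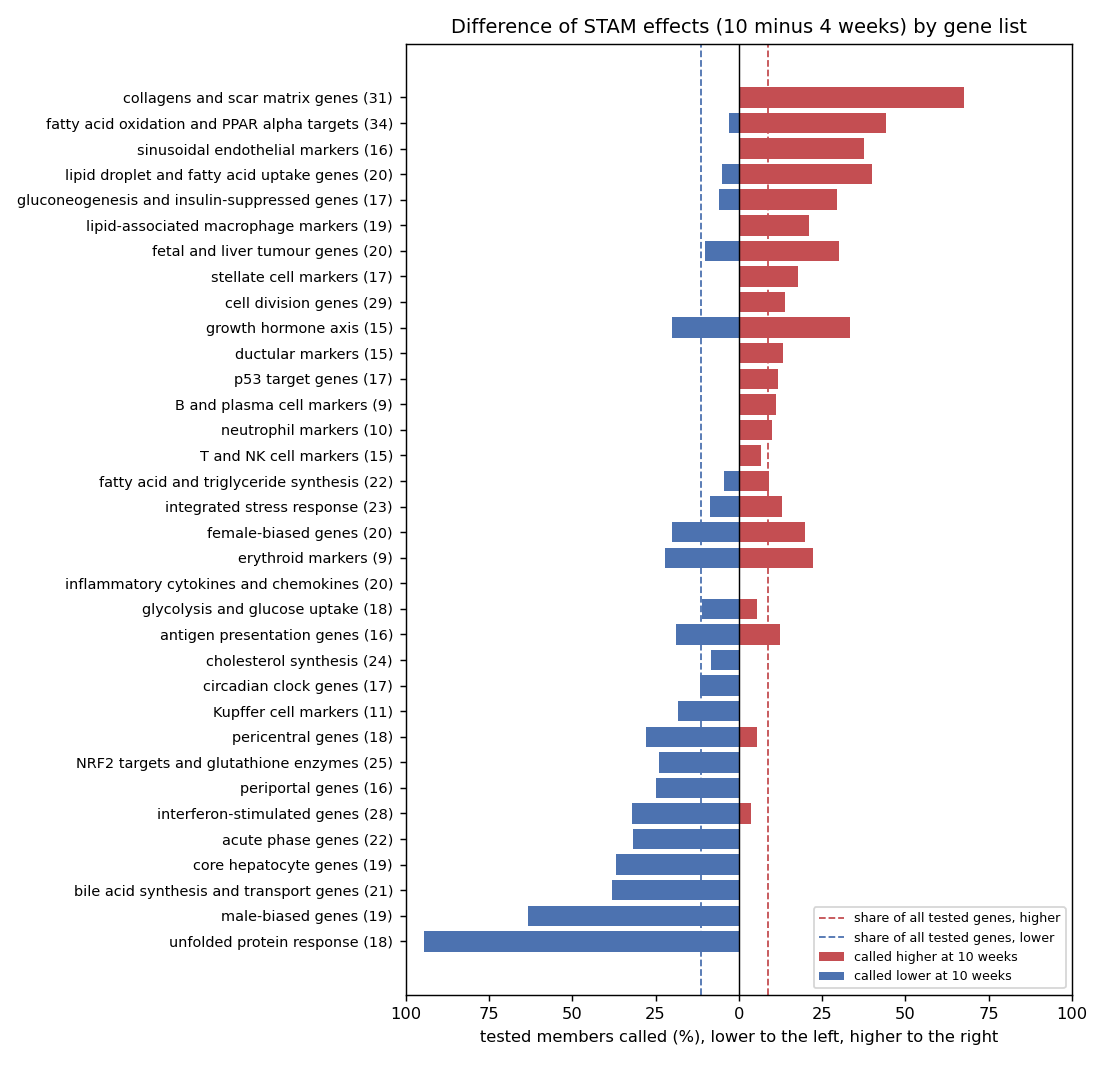
Bars give the percentage of tested members of each gene list whose STAM effect differed between the ages, positive (higher at 10 weeks) to the right and negative to the left; the number of tested members is in parentheses and the dashed lines are the shares of all tested genes, 8.89% and 11.2%. The folding genes of the endoplasmic reticulum (17 of 18 negative) and the matrix genes (21 of 31 positive) lie at the ends.

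The list with the greatest share of called members was that of protein folding in the endoplasmic reticulum, the compartment in which hepatocytes fold the plasma proteins they secrete. When unfolded protein accumulates, the unfolded protein response, through the sensors ATF6, IRE1 and PERK, raises chaperones, folding enzymes and the machinery that removes misfolded protein. ATF6 is known to act with the factor NF-Y at the endoplasmic reticulum stress response element, a CCAAT box and a CCACG box set 9 bases apart. The 250 bases before the start of each gene in RefSeq (GRCm38.p6) were searched on both strands for CCAAT, 9 bases of any kind and CCACG. The motif was found in 35 of 27025 genes with such a window (0.130%) and in 7 of the 16 list members that had one: Calr, Creld2, Dnajc3, Hsp90b1, Hspa5, Pdia6 and Syvn1. Herpud1 held the related arrangement of ATTGG, 1 base of any kind and CCACG, found in 10 genes in all. The 2 motifs overlap in no window of the list members. The windows of 4 members of this list are shown 5′ to 3′ on the strand of the gene, with the motif in capitals, which reads CGTGG and ATTGG where it lies on the opposite strand. They cover chr2:34771840-34772089 (plus strand) for Hspa5, chr10:86705445-86705694 (minus strand) for Hsp90b1, chr14:118937682-118937931 (plus strand) for Dnajc3 and chr15:88819396-88819645 (plus strand) for Creld2.
Hspa5: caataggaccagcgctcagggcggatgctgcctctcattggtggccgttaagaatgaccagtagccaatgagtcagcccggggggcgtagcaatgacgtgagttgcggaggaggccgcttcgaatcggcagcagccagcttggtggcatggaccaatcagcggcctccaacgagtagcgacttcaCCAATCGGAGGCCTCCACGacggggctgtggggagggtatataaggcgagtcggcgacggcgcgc
Hsp90b1: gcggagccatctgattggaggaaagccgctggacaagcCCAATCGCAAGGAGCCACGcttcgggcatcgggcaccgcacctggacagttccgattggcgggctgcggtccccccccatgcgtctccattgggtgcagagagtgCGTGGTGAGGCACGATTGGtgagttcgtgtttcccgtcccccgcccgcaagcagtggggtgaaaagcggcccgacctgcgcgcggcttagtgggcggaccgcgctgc
Dnajc3: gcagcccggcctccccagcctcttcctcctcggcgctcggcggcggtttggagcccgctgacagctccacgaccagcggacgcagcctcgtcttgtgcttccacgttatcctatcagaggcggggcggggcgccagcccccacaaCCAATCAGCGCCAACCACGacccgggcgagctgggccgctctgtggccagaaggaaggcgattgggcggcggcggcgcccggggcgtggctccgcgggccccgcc
Creld2: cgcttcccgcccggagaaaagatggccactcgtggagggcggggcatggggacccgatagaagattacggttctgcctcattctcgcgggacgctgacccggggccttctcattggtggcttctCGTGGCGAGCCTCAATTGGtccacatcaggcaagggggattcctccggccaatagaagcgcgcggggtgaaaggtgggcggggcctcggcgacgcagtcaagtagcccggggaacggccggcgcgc
Hspa5 and Dnajc3 each hold 1 match on the gene's own strand, Creld2 holds 1 on the opposite strand, and Hsp90b1 holds 1 on each. A match describes the letters of the window, and no binding was measured. The list was built from known genes of this response, so its share of matches was not a test of the shared change. Differences ran from -1.82 (Creld2) to -0.73 (Hsp90b1) in members with the first motif. In members with neither motif they ran from -1.77 (Sdf2l1) to -0.32 (Xbp1).

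Of the 18 genes of this list, 17 had a negative difference and none a positive one (median -0.94, against 0.02 over all tested genes). The count was 17 in every fit without 1 library and 16 or 17 under every other setting tried. At 10 weeks all 18 fell in STAM livers (background 22.7%), and at 4 weeks 1 did (background 4.41%), which was Xbp1, the transcription factor activated by IRE1. Xbp1 was also the member whose difference was not called (-0.32, 95% interval -0.70 to 0.06, limma adjusted p = 0.231), with effects of -0.76 at 10 weeks and -0.44 at 4 weeks. The whole list summed to 3693 to 4713 CPM in 10-week STAM livers and 7100 to 9795 CPM in 10-week controls, ranges that do not overlap. At 4 weeks the sums overlapped, with 4859 to 5928 CPM in STAM livers and 4759 to 6711 CPM in controls.

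Hspa5 (chromosome 2, 34772090 to 34776529, plus strand, mm10), which encodes BiP, the main chaperone of this compartment and the protein that holds the sensors inactive, stood at 9.47, 9.02, 9.27, 9.16 and 9.29 log2 CPM in the 10-week STAM livers, against 10.76, 10.7, 10.71, 10.15 and 10.41 in the 10-week controls. At 4 weeks it stood at 10.13, 10.29, 10.07, 9.97 and 9.84 log2 CPM in the 4-week STAM livers, against 8.99, 9.7, 10.5, 10.16 and 9.81 in the 4-week controls. The 10-week groups did not overlap and the 4-week groups did, with 1 low control, replicate 1. Its effect was -1.3 at 10 weeks (2.47-fold lower in STAM) and 0.23 at 4 weeks, a difference of -1.53 (95% interval -2.1 to -0.96, limma adjusted p = 0.00085). Creld2 (chromosome 15, 88819646 to 88826681, plus strand, mm10), a disulphide isomerase induced by this response, had levels of 4.75, 4.19, 4.5, 4.33 and 4.23 log2 CPM in the 10-week STAM livers, against 6.73, 6.29, 6.37, 5.47 and 6.03 in the 10-week controls. Its 4-week levels were 4.84, 5.62, 4.92, 4.86 and 4.89 log2 CPM in the 4-week STAM livers, against 4.63, 4.52, 5.88, 5.39 and 4.51 in the 4-week controls. The 10-week controls were the highest of the 4 groups as a whole, although 1 of them lay below single livers of both 4-week groups. The difference for Creld2 was -1.82 (95% interval -2.6 to -1.03, limma adjusted p = 0.00271). Further differences were -1.87 for Hyou1 and -1.77 for Sdf2l1, both partners of BiP, and -1.77 for Dnajb9, a co-chaperone that restrains IRE1. They were -1.71 for Manf, a secreted factor that binds BiP, -1.71 for Syvn1, the ubiquitin ligase of misfolded protein, and -1.19 for Herpud1, its partner. Members with smaller differences were Hsp90b1 (-0.73, lost with quantile normalization), Dnajc3 (-0.78), Calr (-0.82) and Pdia6 (-0.76), of which the first 3 are chaperones or a co-chaperone and Pdia6 a disulphide isomerase. From 4 to 10 weeks the median change of the list was -0.45 in STAM livers and 0.70 in controls on the deposited scale. Controls changed more in 13 of 18 genes, against 59.1% of all tested genes. On the scale common to both tables they did in 12 of 18, against 58.1%, and these levels were not tested. A heat shock partner outside this compartment, Hsph1, was called in opposite directions at the 2 ages, with effects of -1.42 at 10 weeks and 0.58 at 4 weeks and a difference of -2.0 (95% interval -2.49 to -1.5, limma adjusted p = 3.54e-05).

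**Figure D3:**
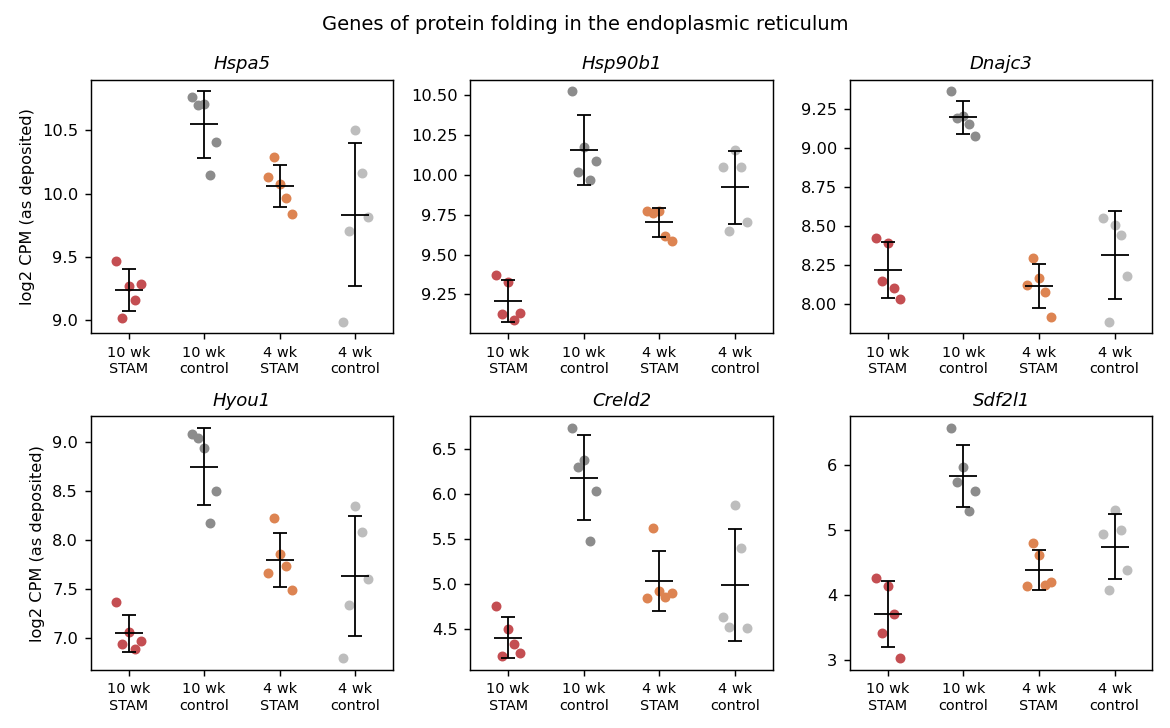
Points are single livers in log2 CPM as deposited, for 6 folding genes in the 4 groups, with the mean and SD as bars (n = 5 each). For each gene the 10-week STAM livers lie below the 10-week controls without overlap, while the 4-week groups overlap.

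The integrated stress response, the branch through ATF4 that answers amino acid shortage as well as unfolded protein, had few members called in the difference. Of 23 genes, 3 had a positive difference (background 8.89%) and 2 a negative one (background 11.2%), shares near the background. In STAM livers 12 were higher (background 25.2%) and 1 lower (background 22.7%) at 10 weeks. At 4 weeks 6 were higher (background 7.79%). The positive ones were Chac1, which degrades glutathione (2.58, 95% interval 1.41 to 3.76, limma adjusted p = 0.00369), Psat1, an enzyme of serine synthesis (2.15, lost with quantile normalization), and Nupr1, a stress-induced chromatin protein (1.37, lost in 11 of 20 fits without 1 library, adjusted p 0.0164 to 0.0804, highest without 10-week STAM replicate 5). Negative differences were found for Ddit3, the factor CHOP (-0.99, lost with total-read scaling), and for Cth, which makes cysteine (-0.91). With total-read scaling the list had 6 positive and 1 negative.

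Matrix genes gave the opposite picture to the folding genes. Of 31 genes of collagens and scar matrix, 21 had a positive difference (background 8.89%) and none a negative one (median 1.22). At 10 weeks 28 rose in STAM livers (background 25.2%) and at 4 weeks 3 did (background 7.79%). Set side by side without a test, the control levels differed more between the ages than the STAM levels: the median change from 4 to 10 weeks was -0.09 in STAM livers and -1.42 in controls. Controls changed more in 27 of the 31, against 59.1% of all tested genes. The count was 17 to 25 in fits without 1 library and under other scalings. Col1a2 (chromosome 6, 4505697 to 4541543, plus strand, mm10), a chain of type I collagen, the main fibre of scar tissue, stood at 4.27, 5.26, 4.45, 5.61 and 5.84 log2 CPM in the 10-week STAM livers, against 3.54, 3.09, 3.07, 2.5 and 2.81 in the 10-week controls. The 4-week values were 5.36, 5.45, 4.66, 5.53 and 5.83 log2 CPM in the 4-week STAM livers, against 4.19, 5.72, 6.43, 4.77 and 5.45 in the 4-week controls. The 10-week controls were the lowest of the 4 groups without overlap, and the other 3 groups overlapped. The difference was 2.03 (95% interval 0.89 to 3.17, limma adjusted p = 0.0142). Col3a1, of the thin fibres that come with it, had effects of 2.03 at 10 weeks and 0.08 at 4 weeks and a difference of 1.95 (95% interval 0.75 to 3.15, limma adjusted p = 0.0232). Col1a1, the other chain of type I collagen, had a difference of 2.43 that was not called (limma adjusted p = 0.0705), but it was called without 10-week control replicate 1 (adjusted p = 0.0233) or 4-week control replicate 1 (adjusted p = 0.0195), against up to 0.121 in the other such fits. For Col1a1 the 10-week library was the highest of its group, at 3.23 log2 CPM, and the 4-week library the lowest of its group, at 2.07 log2 CPM. Thbs1, thrombospondin 1, which activates TGF-beta, had a difference of 2.15 (lost in 6 of 20 fits without 1 library, adjusted p 0.00761 to 0.0569, highest without 4-week STAM replicate 3). Timp1, the inhibitor of matrix proteases, was higher in STAM at both ages, by 3.65 at 10 weeks and 2.82 at 4 weeks, and its difference was not called (0.83, limma adjusted p = 0.673).

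Acta2, the smooth muscle actin of activated stellate cells, had effects of 0.43 at 10 weeks and 0.79 at 4 weeks (difference -0.37, 95% interval -2.77 to 2.04, limma adjusted p = 0.858). Of 17 stellate cell markers, Pdgfra (1.06) and Pdgfrb (1.0), the receptors of platelet-derived growth factor, and the lectin Colec11 (0.87) had a positive difference (background 8.89%), and 6 members did with total-read scaling. The 17 markers summed to 368 to 509 CPM in 10-week STAM livers, 295 to 426 CPM in 10-week controls, 336 to 419 CPM in 4-week STAM livers and 413 to 503 CPM in 4-week controls. Their part in the matrix result was not tested. Sinusoidal endothelial markers had 6 of 16 positive: the hyaluronan receptor Lyve1 (1.78), Oit3 (0.65), the scavenger receptors Stab1 (0.46) and Stab2 (0.44, lost in 13 of 20 fits without 1 library, adjusted p 0.0317 to 0.0884, highest without 10-week STAM replicate 2), Pecam1 (0.56) and Vwf, von Willebrand factor (1.28, lost in 14 of 20 fits without 1 library, adjusted p 0.0235 to 0.0802, highest without 10-week control replicate 3). The background of positive differences was 8.89%. With quantile normalization there were 5 positive and 1 negative, and without the filter 4 positive. In STAM livers 5 endothelial markers were higher (background 25.2%) and 2 lower (background 22.7%) at 10 weeks. At 4 weeks 2 were higher (background 7.79%) and 5 lower (background 4.41%). For Lyve1 the effects were 1.96 at 10 weeks and 0.18 at 4 weeks. Ductular markers had 2 of 15 positive (background 8.89%), Krt23, a keratin of injured liver (3.55, 95% interval 2.17 to 4.92, limma adjusted p = 0.00131), and the factor Sox4 (1.82), and 4 with total-read scaling. In STAM livers 11 of the 15 were higher at 10 weeks (background 25.2%) and 6 at 4 weeks (background 7.79%). The sum of the ductular markers was 149 to 461 CPM in 10-week STAM livers, 57.8 to 78.2 CPM in 10-week controls, 154 to 199 CPM in 4-week STAM livers and 75.1 to 126 CPM in 4-week controls.

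Fetal and liver tumour genes differed in both directions. Igf2bp3 (chromosome 6, 49085218 to 49214954, minus strand, mm10), an RNA-binding protein of fetal liver and liver tumours, stood at 2.36, 3.02, 2.03, 3.21 and 3.94 log2 CPM in the 10-week STAM livers, against -2.8, -6.39, -6.39, -6.39 and -3.99 in the 10-week controls. Levels at 4 weeks were 4.78, 4.57, 4.7, 4.81 and 4.82 log2 CPM in the 4-week STAM livers, against 4.7, 4.93, 4.4, 4.59 and 4.67 in the 4-week controls. In the 10-week controls these values are 3 reads over the whole group, against 939 in the 10-week STAM livers, a ratio of 274 (exact counting interval 93.4 to 1330). Both 4-week groups lay above every 10-week liver. The fitted difference, 8.03 (95% interval 6.36 to 9.69, limma adjusted p = 1.12e-05), depends on the prior count and was 5.87 with a prior of 2 reads. Of 20 genes of the fetal and liver tumour list, 6 had a positive (background 8.89%) and 2 a negative difference (background 11.2%). The positive ones were Igf2bp3, the steroid enzyme Akr1c18 (4.34, not called with voom weights), Cdkn3 (4.09, or 2.78 with a prior of 2 reads, from 76 reads in 10-week STAM livers and 5 in 10-week controls), Ly6d (1.85, not called with voom weights) and the imprinted genes Mest (1.71) and Plagl1 (1.94). Afp, the fetal counterpart of albumin, was higher in STAM at both ages, by 3.76 at 10 weeks and 2.17 at 4 weeks, and its difference of 1.59 was not called (limma adjusted p = 0.0703). It was called without 10-week STAM replicate 1 (adjusted p = 0.0464), 10-week control replicate 4 (adjusted p = 0.039) or 4-week control replicate 1 (adjusted p = 0.00799), against up to 0.13 in the other such fits, and it was called with total-read scaling.

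Igf2, the fetal growth factor, went the other way. Igf2 (chromosome 7, 142650768 to 142661035, minus strand, mm10) stood at -0.40, 1.22, -1.88, -0.41 and 0.22 log2 CPM in the 10-week STAM livers, against -1.86, -0.75, -0.66, -1.06 and -1.91 in the 10-week controls. For the 4-week livers the values were 6.02, 6.1, 4.68, 4.48 and 6.02 log2 CPM in the 4-week STAM livers, against -0.75, -0.58, -0.51, -0.75 and -0.40 in the 4-week controls. Only the 4-week STAM livers were high, and all 5 lay above every other liver. The STAM effect was 1.0 at 10 weeks (limma adjusted p = 0.0681) and 6.06 at 4 weeks (66.7-fold, limma adjusted p = 3.76e-08), a difference of -5.06 (95% interval -6.36 to -3.76, limma adjusted p = 3.91e-05). Abcc4, an exporter of bile acids and nucleotides, was the other gene of this list with a negative difference (-1.11).

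Cell division genes had 4 of 29 members called, all positive (background 8.89%), with a median difference of 1.73. They were Cenpf of the centromere, Cdc20 and Ube2c of the complex that ends mitosis, and the kinase Plk1. Cenpf (chromosome 1, 189640614 to 189688086, minus strand, mm10) stood at 1.65, 1.92, 0.56, 2.09 and 1.96 log2 CPM in the 10-week STAM livers, against -1.55, -4.05, -1.99, -3.24 and -3.99 in the 10-week controls. At the younger age the values were 2.89, 2.57, 3.49, 3.63 and 2.91 log2 CPM in the 4-week STAM livers, against -0.92, 3.67, 4.12, 4.66 and 4.33 in the 4-week controls. The 10-week groups did not overlap, and 4-week control replicate 1 was far below the other 4-week livers. The difference was 4.68 (95% interval 2.24 to 7.11, limma adjusted p = 0.00914). It was 3.85 for Cdc20, 3.4 for Plk1 and 3.18 for Ube2c (lost in 8 of 20 fits without 1 library, adjusted p 0.000289 to 0.0601, highest without 10-week control replicate 3), and no member was called with voom weights. Without 4-week control replicate 1, 24 of the 29 were positive. Mki67, the Ki-67 antigen of cycling cells, had a difference of 2.31 (limma adjusted p = 0.127) with all libraries and was called without 4-week control replicate 1 (adjusted p = 1.92e-05), against up to 0.206 in the other such fits. From 4 to 10 weeks the median change of the list was -1.42 in STAM livers and -3.04 in controls. Of 17 p53 targets, Tnfrsf10b, a death receptor (1.76, 95% interval 1.01 to 2.51, limma adjusted p = 0.00195), and Eda2r (1.19, lost in 7 of 20 fits without 1 library, adjusted p 0.0127 to 0.0609, highest without 4-week STAM replicate 3) had a positive difference, a share near the background of 8.89%. In STAM livers 13 of the p53 targets were higher at 10 weeks (background 25.2%) and 12 at 4 weeks (background 7.79%). With total-read scaling 6 of the p53 targets were positive. Cdkn1a, the p21 inhibitor of the cell cycle, was higher in STAM by 3.78 at 10 weeks and by 2.62 at 4 weeks, and its difference of 1.16 was not called (limma adjusted p = 0.131), but it was called without 4-week control replicate 1 (adjusted p = 0.0118), against up to 0.216 in the other such fits.

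**Figure D4:**
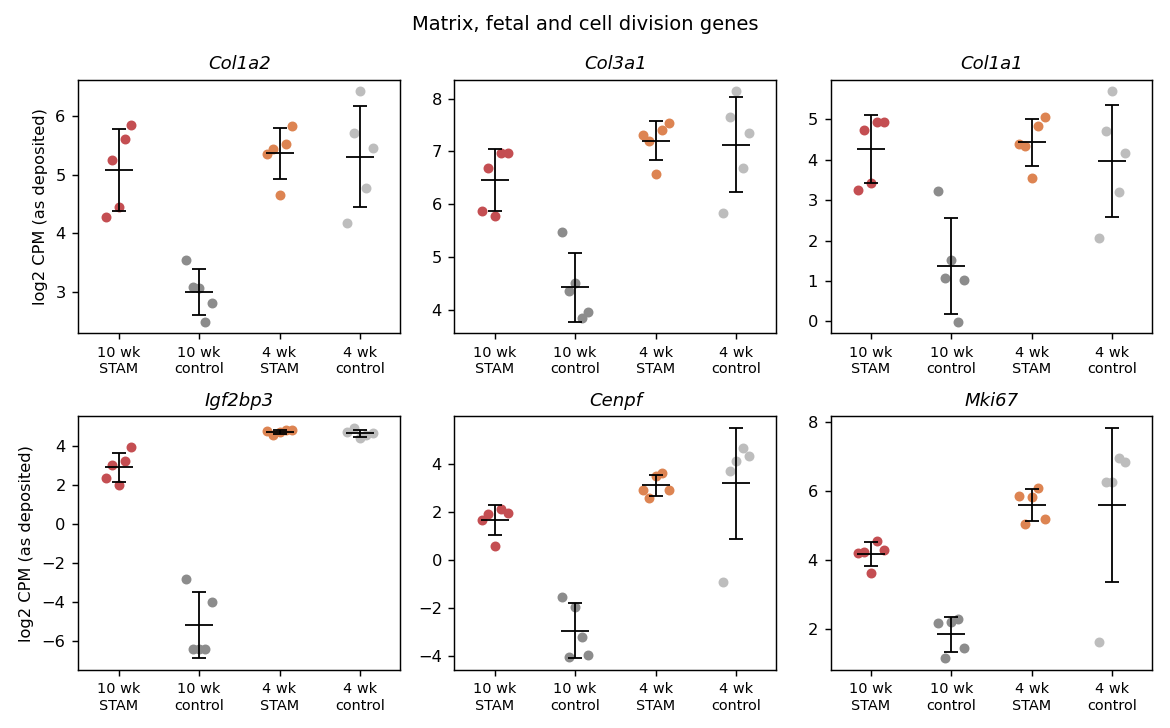
Points are single livers in log2 CPM as deposited for matrix, fetal and cell division genes, with the mean and SD as bars (n = 5 each). The 10-week controls have the lowest mean for each gene, and 4-week control replicate 1 is the low point of the 4-week controls for Cenpf and Mki67.

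Growth hormone acts through its receptor, the kinase JAK2 and the factor STAT5b, and adult males secrete it in pulses, which sets the level of many liver genes that differ between the sexes. Of 19 tested male-biased genes, 12 had a negative difference (background 11.2%) and none a positive one (median -1.81), with 9 to 14 in fits without 1 library and 9 to 12 under other settings. In STAM livers 1 was higher (background 25.2%) and 7 were lower (background 22.7%) at 10 weeks, and 8 were higher (background 7.79%) and none lower at 4 weeks. All 19 changed more with age in controls than in STAM livers, against 59.1% of all tested genes. Their median changes were 1.69 in STAM livers and 4.12 in controls. Cyp4a12a (chromosome 4, 115299046 to 115332815, plus strand, mm10), an omega-hydroxylase of fatty acids in adult male liver, stood at 8.83, 8.14, 8.66, 8.36 and 8.16 log2 CPM in the 10-week STAM livers, against 9.11, 7.76, 8.35, 8.83 and 8.33 in the 10-week controls. At 4 weeks it stood at 5.6, 4.18, 6.98, 5.59 and 6.56 log2 CPM in the 4-week STAM livers, against 3.25, 2.14, 2.61, 3.98 and 2.85 in the 4-week controls. The 10-week groups overlapped, the 4-week groups did not, and the 4-week STAM livers lay between the 4-week controls and both 10-week groups. Its difference was -2.86 (95% interval -4.17 to -1.56, limma adjusted p = 0.00418). The neighbouring Cyp4a12b, which may share reads with Cyp4a12a, had effects of 0.32 at 10 weeks and 3.48 at 4 weeks (difference -3.15). Pairs of effects at 10 and 4 weeks were 0.71 and 2.63 for Mup20, a male urinary pheromone protein (difference -1.92, not called with quantile normalization), and 0.24 and 2.51 for Mup1 (difference -2.26). Both belong to a family of near-identical genes, and their values are uncertain. Susd4, an inhibitor of complement, had 0.89 and 2.7 (difference -1.81), and Elovl3, an elongase of fatty acids, had -0.69 and 2.04 (difference -2.73, lost in 7 of 20 fits without 1 library, adjusted p 0.00592 to 0.0587, highest without 10-week STAM replicate 5). Complement component C6, on both the male-biased list and that of Kupffer cells, had -0.17 and 2.13 (difference -2.3).

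Other male-biased genes fell in STAM livers at 10 weeks. Hsd3b5, a steroid-metabolizing enzyme of male liver, stood at 3.2, 0.31, 3.09, 4.02 and -1.05 log2 CPM in the 10-week STAM livers, against 7.76, 7.45, 8.0, 8.07 and 7.63 in the 10-week controls. Its 4-week levels were 1.17, -0.78, 3.17, 1.43 and 1.77 log2 CPM in the 4-week STAM livers, against 3.07, 3.05, 2.45, 3.78 and 1.98 in the 4-week controls. All 5 of the 10-week STAM livers lay below every 10-week control, by 58.4-fold on average, and they spread over more than 5 log2 units. The difference was -4.35 (95% interval -6.84 to -1.86, limma adjusted p = 0.0156). Cyp7b1, the oxysterol hydroxylase of the alternative bile acid pathway, had effects of -1.45 at 10 weeks and 0.44 at 4 weeks (difference -1.89).

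Among 20 female-biased genes, 4 differences were positive (background 8.89%) and 4 negative (background 11.2%). In STAM livers 2 were higher and 3 lower at 10 weeks, below the background of 47.9% called, and 3 were higher at 4 weeks, against a background of 7.79%. Cyp3a41a (chromosome 5, 145694049 to 145720136, minus strand, mm10), a P450 of adult female and of young liver, stood at -1.01, -0.84, -0.16, 0.32 and -1.69 log2 CPM in the 10-week STAM livers, against -0.57, -0.17, 0.09, -0.07 and -0.47 in the 10-week controls. The 4-week values were 7.36, 7.3, 6.96, 7.67 and 8.07 log2 CPM in the 4-week STAM livers, against -0.35, 3.71, 4.31, 3.29 and 4.12 in the 4-week controls. The 4-week STAM livers exceeded every other liver, and 4-week control replicate 1 lay at the level of the 10-week livers. The effect was -0.43 at 10 weeks and 4.45 at 4 weeks, a difference of -4.89 (95% interval -6.83 to -2.95, limma adjusted p = 0.00162). Its relative Cyp3a16 was called in opposite directions, with effects of -2.2 at 10 weeks and 0.83 at 4 weeks (difference -3.03). Negative differences of the list also included -3.33 for Cyp2b10 and -3.38 for Cyp2c69. Positive ones were 3.46 for Cyp2a4, 1.93 for the steroid enzyme Cyp17a1, 1.69 for the monooxygenase Fmo2 and 3.9 for Cyp2b13 (lost in 13 of 20 fits without 1 library, adjusted p 0.00983 to 0.0749, highest without 10-week STAM replicate 5). For Cyp2b9, whose female-type expression is well known, the difference was 2.8 (limma adjusted p = 0.146), and its 10-week control levels ran from 0.09 in replicate 1 to 7.03 in replicate 5. Cyp2a22, close to Cyp2a4 in sequence and position, had a difference of 2.95.

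Socs2 (chromosome 10, 95411490 to 95416857, minus strand, mm10), the feedback inhibitor of growth hormone signalling and a direct target of STAT5b, stood at 3.23, 3.7, 3.1, 3.33 and 4.02 log2 CPM in the 10-week STAM livers, against 2.52, 2.38, 2.94, 2.02 and 3.01 in the 10-week controls. Levels at 4 weeks were 3.6, 3.33, 4.38, 3.93 and 4.7 log2 CPM in the 4-week STAM livers, against 6.22, 6.84, 5.88, 6.98 and 6.96 in the 4-week controls. At 10 weeks every STAM liver lay above every control, and at 4 weeks every STAM liver lay below every control. The effects were 0.90 at 10 weeks (limma adjusted p = 0.0131) and -2.59 at 4 weeks (limma adjusted p = 8.9e-06), a difference of 3.49 (95% interval 2.66 to 4.33, limma adjusted p = 3.11e-05). On the list of the growth hormone axis, 5 of 15 differences were positive (background 8.89%) and 3 negative (background 11.2%). Besides Socs2 and Igfbp1 the positive ones were Onecut1, the hepatocyte factor HNF6 (2.85, 95% interval 1.7 to 4.01, limma adjusted p = 0.00172), and the carriers of insulin-like growth factors Igfbp3 (1.83) and Igfbp2 (1.16). Negative ones were Bcl6, the repressor that keeps female genes off in males (-2.66, 95% interval -3.73 to -1.59, limma adjusted p = 0.00173), the prolactin receptor Prlr (-1.05) and Igfals, which stabilizes circulating IGF1 (-0.79, lost in 3 of 20 fits without 1 library, adjusted p 0.00584 to 0.0519, highest without 4-week STAM replicate 3, and lost with total-read scaling and with quantile normalization).

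**Figure D5:**
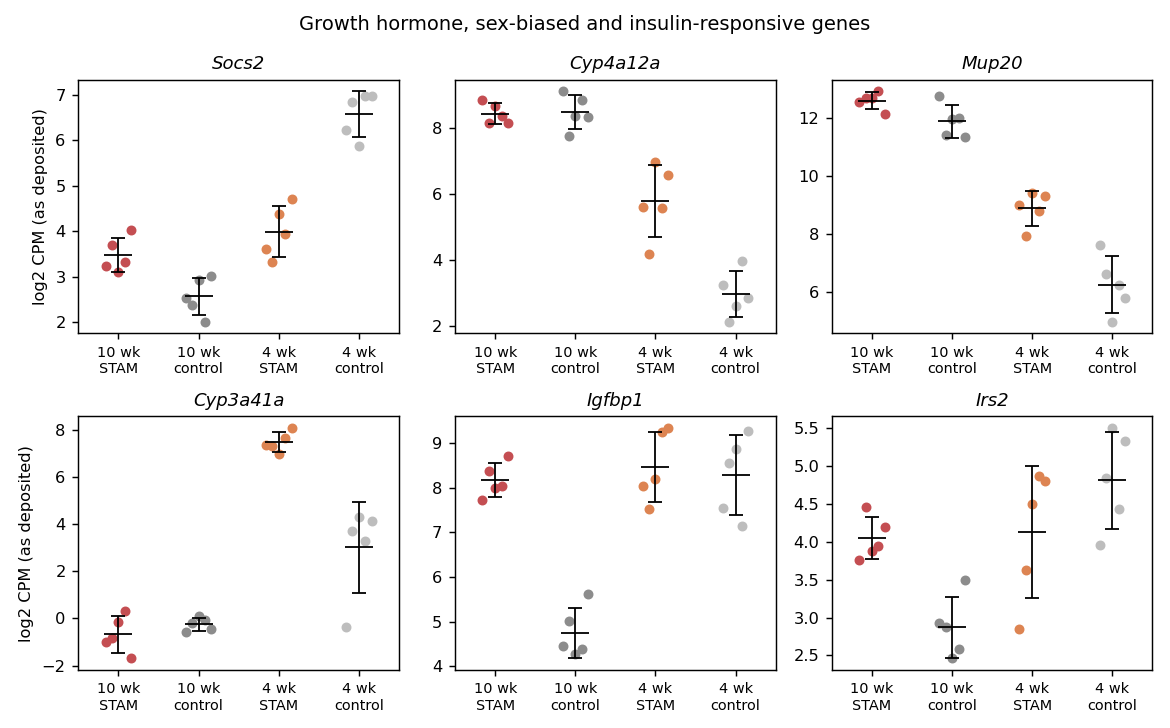
Points are single livers in log2 CPM as deposited for genes of growth hormone, sex bias and insulin, with the mean and SD as bars (n = 5 each). Socs2 is higher in STAM than in control livers at 10 weeks and lower at 4 weeks; Igfbp1 separates the 10-week groups, and Cyp4a12a and Mup20 separate the 4-week groups.

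A gene under insulin diverged between STAM and control livers at 10 weeks. Igfbp1 (chromosome 11, 7197787 to 7202546, plus strand, mm10), a secreted carrier that insulin represses, stood at 7.73, 8.37, 7.99, 8.04 and 8.72 log2 CPM in the 10-week STAM livers, against 4.44, 5.01, 4.27, 4.38 and 5.62 in the 10-week controls. For the 4-week livers the values were 8.04, 7.53, 8.19, 9.24 and 9.34 log2 CPM in the 4-week STAM livers, against 7.56, 8.56, 8.86, 7.14 and 9.26 in the 4-week controls. The 10-week controls lay below every other liver, and the other 3 groups overlapped. The difference was 3.23 (95% interval 1.97 to 4.5, limma adjusted p = 0.00148). Its effects were 3.43 at 10 weeks (limma adjusted p = 6.25e-06) and 0.19 at 4 weeks (limma adjusted p = 0.832).

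Of 17 genes of gluconeogenesis and of insulin-suppressed genes, 5 differences were positive (background 8.89%) and 1 negative (background 11.2%). With Igfbp1 they were Irs2, the adaptor of the insulin receptor (1.86, 95% interval 0.79 to 2.93, limma adjusted p = 0.0156), Got1, an aminotransferase that carries carbon to glucose (2.07, 95% interval 1.3 to 2.83, limma adjusted p = 0.000907), the coactivator Ppargc1a (1.21) and Pcx, pyruvate carboxylase (0.45). The negative one was Creb1 (-0.39, lost with total-read scaling and with quantile normalization). Pck1, the enzyme that commits carbon to gluconeogenesis, had effects of 0.45 at 10 weeks and 0.26 at 4 weeks, and the interval of its difference was -0.23 to 0.61. On the glycolysis and glucose uptake list, 10 of 18 genes rose in STAM at 10 weeks (background 25.2%) and 5 at 4 weeks (background 7.79%). In the difference 1 was positive (background 8.89%) and 2 were negative (background 11.2%), shares near or below the background. The glucose carrier Slc2a1 had a negative difference (-0.44, lost in 15 of 20 fits without 1 library, adjusted p 0.0172 to 0.0842, highest without 10-week control replicate 5) and liver pyruvate kinase, Pklr, a positive one (0.94, lost in 9 of 20 fits without 1 library, adjusted p 0.0108 to 0.0639, highest without 4-week control replicate 2).

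Of 34 genes of fatty acid oxidation and targets of PPAR alpha, the fatty acid receptor that induces them, 15 differences were positive (background 8.89%). The median was 0.46, and 1 was negative (background 11.2%). At 10 weeks 22 rose (background 25.2%) and 1 fell (background 22.7%) in STAM, and at 4 weeks 3 rose (background 7.79%). Positive counts were 12 to 16 in fits without 1 library and reached 20 with total-read scaling. Cpt1a, the carnitine transferase that admits fatty acids to mitochondria, had effects of 1.02 at 10 weeks and 0.39 at 4 weeks (difference 0.63, 95% interval 0.30 to 0.96, limma adjusted p = 0.00785). Ehhadh of the peroxisome had a difference of 1.42, the uncoupling protein Ucp2 of 1.61, the hydroxylases Cyp4a31 and Cyp4a32 of 1.98 and 1.79, and the thioesterase Acot2 of 1.66 (lost in 4 of 20 fits without 1 library, adjusted p 0.013 to 0.057, highest without 4-week STAM replicate 3). Cyp4a31 and Cyp4a32 are near copies, so reads may be shared between them. The single negative one was Acadsb (-0.47), which oxidizes a branched amino acid product, and its call was lost with total-read scaling and with quantile normalization. Cyp4a14, another PPAR alpha target, had a difference of 1.02 (limma adjusted p = 0.229).

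Lipid droplet and fatty acid uptake genes had 8 of 20 differences positive (background 8.89%) and 1 negative (background 11.2%). Slc27a1 (chromosome 8, 71568927 to 71586708, plus strand, mm10), a fatty acid transporter best known in muscle and fat, stood at 4.74, 4.85, 4.98, 4.27 and 5.03 log2 CPM in the 10-week STAM livers, against 2.35, 2.96, 2.32, 2.6 and 2.93 in the 10-week controls. Its 4-week levels were 2.54, 2.75, 2.24, 2.56 and 2.88 log2 CPM in the 4-week STAM livers, against 2.73, 3.17, 2.84, 2.31 and 2.76 in the 4-week controls. The 10-week STAM livers exceeded all other livers and the other 3 groups covered 2.24 to 3.17 log2 CPM. The difference was 2.31 (95% interval 1.81 to 2.82, limma adjusted p = 6.99e-06). Mogat1 (chromosome 1, 78511060 to 78538173, plus strand, mm10), an acyltransferase of triglyceride synthesis induced in fatty liver, stood at 2.89, 2.73, 3.15, 2.93 and 3.39 log2 CPM in the 10-week STAM livers, against -1.08, -0.64, -2.68, -2.32 and -0.94 in the 10-week controls. The 4-week values were 0.37, -0.55, -0.30, 0.19 and -0.19 log2 CPM in the 4-week STAM livers, against -1.58, -0.86, -0.29, -1.15 and -1.49 in the 4-week controls. Here too the 10-week STAM livers exceeded all others, and the difference was 3.57 (95% interval 2.55 to 4.6, limma adjusted p = 8.08e-05). Cidea, a droplet protein of brown fat and of fatty liver, had 1203 reads in 10-week STAM livers and 2 in 10-week controls, a ratio of 526 (exact counting interval 145 to 4350), with values of -1.18, -3.95, -2.77, -2.01 and -0.65 log2 CPM in the 4-week STAM livers, against -6.25, -6.25, 0.97, -6.25 and -3.83 in the 4-week controls. Its fitted difference was 6.45, or 5.68 with a prior of 2 reads. Further positive ones were Fabp4 (2.15), the lipase Pnpla2 (1.22), the coat protein Plin3 (0.81), and Vldlr, the receptor of very low density lipoprotein, whose effects of 0.96 at 10 weeks and -0.93 at 4 weeks were called in opposite directions. The coat protein Plin5 had the negative difference (-0.65, lost in 11 of 20 fits without 1 library, adjusted p 0.00449 to 0.0772, highest without 4-week control replicate 2). Cd36, the fatty acid importer, was higher in STAM at both ages, by 1.57 at 10 weeks and 1.6 at 4 weeks, and the interval of its difference was -0.54 to 0.48, with an estimate of -0.03 that turned positive with total-read scaling and with quantile normalization. Cidec, another droplet protein, was also higher at both ages, by 4.51 at 10 weeks and 3.08 at 4 weeks (limma adjusted p of the difference = 0.13).

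Apoa4 (chromosome 9, 46240844 to 46243458, plus strand, mm10), an apolipoprotein that rises in fatty liver, was called at both ages in the same direction and more so at 10 weeks. It stood at 10.98, 11.78, 11.12, 11.89 and 11.8 log2 CPM in the 10-week STAM livers, against 7.29, 6.86, 6.7, 6.41 and 6.12 in the 10-week controls. Levels at 4 weeks were 8.64, 8.33, 9.01, 9.55 and 10.01 log2 CPM in the 4-week STAM livers, against 6.89, 6.96, 6.95, 6.91 and 6.6 in the 4-week controls. STAM livers exceeded controls at each age without overlap, 28.6-fold at 10 weeks and 4.75-fold at 4 weeks, and the difference was 2.59 (95% interval 1.76 to 3.42, limma adjusted p = 0.000309). Genes of fat and sterol synthesis were called at shares near or below the background of 8.89% for positive and 11.2% for negative differences. Of 22 genes of fatty acid and triglyceride synthesis, Elovl5 (1.75) and Fads2 (1.2), which make polyunsaturated fatty acids, had a positive difference and Elovl3 a negative one, as given above. Scd1 and Fasn, the desaturase and the fatty acid synthase, had differences of 0.68 and 0.22 (limma adjusted p = 0.574 and 0.817). In 4-week control replicate 1 the list summed to 6104 CPM, against a group median of 25144 CPM, and Scd1 was called without 4-week control replicate 1 (adjusted p = 0.0442), against up to 0.762 in the other such fits. Of 24 cholesterol synthesis genes, 2 had a negative difference, Tm7sf2 (-1.07) among them, and none did with total-read scaling. In STAM livers 8 of the 24 were lower at 10 weeks (background 22.7%) and 1 at 4 weeks (background 4.41%). Sqle had a difference of -1.01 that was not called (limma adjusted p = 0.555), with 2.6 log2 CPM in 4-week control replicate 1 against 6.39 to 7.28 in the others. Without that library, 10-week control replicate 1 and 10-week STAM replicate 5 together, 1 cholesterol gene was negative. The median of the cholesterol list was then 0.18, against -0.47 with all libraries. The fatty acid and triglyceride list then had 6 positive and none negative.

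Cytochromes P450 of xenobiotic and bile acid metabolism were among the lowest differences. Cyp2c29 (chromosome 19, 39287085 to 39330713, plus strand, mm10), an abundant P450 induced through the receptor CAR, stood at 7.26, 6.83, 7.58, 7.35 and 6.0 log2 CPM in the 10-week STAM livers, against 10.8, 11.02, 11.21, 11.19 and 10.9 in the 10-week controls. For the 4-week livers the values were 9.92, 10.16, 10.07, 10.31 and 9.66 log2 CPM in the 4-week STAM livers, against 11.09, 10.52, 10.81, 10.77 and 10.8 in the 4-week controls. The 10-week STAM livers lay below all others, and the 4-week STAM livers below all 4-week controls. The effects were -4.02 at 10 weeks and -0.78 at 4 weeks, a difference of -3.24 (95% interval -3.87 to -2.62, limma adjusted p = 2.95e-06). Cyp2b10, the classical target of CAR, was 22-fold lower in STAM at 10 weeks. Cyp3a11, a target of the receptor PXR, had effects of -2.19 at 10 weeks and 0.31 at 4 weeks (difference -2.5, 95% interval -3.11 to -1.9, limma adjusted p = 2.25e-05). Cyp2c70, which makes muricholic acids in the mouse, had a difference of -3.43 (95% interval -4.07 to -2.78, limma adjusted p = 2.95e-06), and Cyp2c40 one of -2.75. Gm6484, a predicted gene, was among the lowest too (-2.76). Counting of reads shared within the Cyp2c and Cyp3a families is not described in the sources used here, and single members are uncertain.

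For the lists that follow, the background was 11.2% for negative and 8.89% for positive differences. Of 21 bile acid genes, 8 had a negative difference and none a positive one, or 5 negative and 1 positive with either total-read scaling or quantile normalization. They included Cyp7b1, the reductase Akr1d1 (-1.2, 95% interval -1.55 to -0.85, limma adjusted p = 9.05e-05), Cyp27a1, which starts the alternative pathway (-0.83), and Nr0b2, the repressor SHP (-2.12, lost in 14 of 20 fits without 1 library, adjusted p 0.00552 to 0.079, highest without 10-week STAM replicate 4). Cyp7a1, which starts the classical pathway of bile acid synthesis, had a difference of -0.12 (95% interval -2.01 to 1.77, limma adjusted p = 0.942), with a positive sign under total-read scaling and quantile normalization. Pericentral genes had 5 of 18 negative and 1 positive. The negative ones were Cyp1a2 (-1.92, 95% interval -2.55 to -1.29, limma adjusted p = 0.000312), the Wnt receptor partner Lgr5 (-1.32), Aldh1a1 (-0.84, lost with quantile normalization), Cyp27a1 and Rnf43 (-0.46, lost with total-read scaling and with quantile normalization). The positive one was Glul, glutamine synthetase (0.56). Periportal genes had 4 of 16 negative, the P450 Cyp2f2 (-1.22, 95% interval -1.71 to -0.74, limma adjusted p = 0.00113), the urea cycle enzymes Cps1 (-0.78, lost in 3 of 20 fits without 1 library, adjusted p 0.00934 to 0.0529, highest without 4-week STAM replicate 3) and Otc (-0.47, lost in 1 of 20 fits without 1 library, adjusted p 0.0121 to 0.0506, highest without 10-week STAM replicate 4), and Pigr (-0.94, lost in 16 of 20 fits without 1 library, adjusted p 0.000485 to 0.0847, highest without 4-week STAM replicate 2). With total-read scaling 1 periportal gene was positive and 1 negative, and with quantile normalization 1 was negative. Of the 19 core hepatocyte genes, 7 were negative, among them Alb (-0.62, 95% interval -1.0 to -0.24, limma adjusted p = 0.0217; not called with total-read scaling or without robust estimation, and given a difference of 0 by quantile normalization, since it ranked first in every library), Apoc3 (-1.02, 95% interval -1.29 to -0.75, limma adjusted p = 4.72e-05) and transferrin, Trf (-0.65, lost with quantile normalization and without robust estimation), but 2 with quantile normalization and 3 with total-read scaling.

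Acute phase genes gave 7 negative differences of 22 (background 11.2%) and none positive, but 3 negative ones with quantile normalization. Orm1, an acute phase glycoprotein, was called in opposite directions, with effects of -0.84 at 10 weeks and 0.92 at 4 weeks (difference -1.76, 95% interval -2.63 to -0.90, limma adjusted p = 0.00613), and its relative Orm3 had a difference of -2.68. Saa1, serum amyloid A, had the lowest difference among called genes above the median level, -3.61 (lost in 17 of 20 fits without 1 library, adjusted p 0.0102 to 0.0862, highest without 10-week STAM replicate 5). Its 10-week controls ran from 4.82 in replicate 2 to 12.07 in replicate 1, and its list summed to 18542 to 22526 CPM in 10-week STAM livers and to 23453 to 64370 CPM in 10-week controls, with that same replicate the highest. Outside this list, C9 of the complement pore was called in opposite directions, with -0.58 at 10 weeks and 1.26 at 4 weeks (difference -1.84).

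Metallothioneins had some of the highest differences. Mt1 (chromosome 8, 94179089 to 94180327, plus strand, mm10), which binds zinc and copper, stood at 6.28, 6.66, 6.59, 5.82 and 6.26 log2 CPM in the 10-week STAM livers, against 5.48, 2.07, 2.48, 2.1 and 2.52 in the 10-week controls. At the younger age the values were 5.05, 5.06, 3.68, 4.47 and 5.89 log2 CPM in the 4-week STAM livers, against 6.2, 5.71, 5.24, 3.88 and 4.33 in the 4-week controls. The 10-week STAM livers lay above every 10-week control, of which replicate 1 was far above the other 4, and the 4-week groups overlapped. The difference was 3.64 (95% interval 1.84 to 5.43, limma adjusted p = 0.00678). For the neighbouring Mt2 it was 3.73 (lost in 5 of 20 fits without 1 library, adjusted p 0.000586 to 0.0555, highest without 4-week STAM replicate 3). Others with a high difference were Rgs16, a regulator of G protein signalling (3.39, 95% interval 1.89 to 4.9, limma adjusted p = 0.00347), Mmd2 (2.74) and the magnesium transporter Nipal1 (2.67). Of 25 NRF2 targets and glutathione enzymes, 6 had a negative difference (background 11.2%) and none was positive, or 3 and 1 with total-read scaling. They included the glutathione transferase Gsta2 (-2.39), Ugdh, which makes the donor for glucuronidation (-1.02), and Abcc4. Among circadian clock genes, Cry1 (-1.28) and Nfil3 (-1.17) had a negative difference, of 17, a share near the background of 11.2%, and none did with total-read scaling.

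More genes were called in opposite directions at the 2 ages. Wsb1, a ubiquitin ligase subunit, had effects of 0.65 at 10 weeks and -1.31 at 4 weeks. Pde4b, which degrades cyclic AMP, had 0.57 and -1.22, and the monooxygenase Fmo4 had 1.05 and -0.74. Aox3, an aldehyde oxidase, had the reverse order, -1.02 at 10 weeks and 0.60 at 4 weeks. Their differences were 1.96, 1.79, 1.79 and -1.63 (limma adjusted p from 2.65e-05 to 0.000557).

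Interferon-stimulated genes rose in STAM livers at both ages. Type I interferon induces them through factors that include STAT2 and IRF9. Of 28 genes, 23 rose (background 25.2%) and 1 fell (background 22.7%) in STAM at 10 weeks, and 25 rose at 4 weeks (background 7.79%). In the difference 9 were negative (background 11.2%) and 1 was positive (background 8.89%), with a median of -0.29. With total-read scaling, which moves the median difference up, 1 was negative and 1 positive. Irf7 (chromosome 7, 141263183 to 141266424, minus strand, mm10), the factor that amplifies the response, stood at 5.93, 5.87, 5.9, 5.85 and 5.27 log2 CPM in the 10-week STAM livers, against 4.67, 4.95, 5.34, 4.68 and 4.75 in the 10-week controls. At 4 weeks it stood at 6.41, 6.54, 6.42, 6.51 and 6.49 log2 CPM in the 4-week STAM livers, against 4.71, 4.83, 5.16, 5.07 and 5.06 in the 4-week controls. At 10 weeks all STAM livers but replicate 5 lay above every control, and at 4 weeks all did. The difference was -0.62 (95% interval -1.0 to -0.24, limma adjusted p = 0.0198), and it was not called with total-read scaling. Usp18, which removes ISG15 and damps the receptor, was the positive exception. It stood at 5.2, 5.16, 5.18, 5.0 and 5.11 log2 CPM in the 10-week STAM livers, against 3.48, 2.6, 2.93, 2.85 and 2.99 in the 10-week controls. Its 4-week levels were 5.16, 5.12, 5.34, 5.2 and 5.3 log2 CPM in the 4-week STAM livers, against 3.78, 4.02, 3.68, 4.11 and 3.97 in the 4-week controls. The STAM livers of both ages covered 5.0 to 5.34 log2 CPM, and every 10-week control lay below every 4-week control, with a difference of 0.85 (95% interval 0.51 to 1.19, limma adjusted p = 0.0013). Ifit1 had a difference of -0.84 and Mx2 of -1.02, and Ifit1 was not called with total-read scaling. Oas1a was higher in STAM by 1.5 at 10 weeks and 1.91 at 4 weeks, and the interval of its difference was -0.97 to 0.15. The list summed to 766 to 956 CPM in 10-week STAM livers, 582 to 796 CPM in 10-week controls, 1235 to 1340 CPM in 4-week STAM livers and 616 to 787 CPM in 4-week controls. Of 16 antigen presentation genes, 2 had a positive difference (background 8.89%) and 3 a negative one (background 11.2%). The positive ones were Ciita, the class II transactivator (1.36, 95% interval 0.59 to 2.13, limma adjusted p = 0.0127), and the peptide transporter Tap2 (0.62). The class I genes H2-K1 (-0.47), H2-D1 (-0.44) and B2m (-0.46) were negative, and 1 of these 3 kept its call with total-read scaling and 1 with quantile normalization.

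Of 19 markers of lipid-associated and recruited macrophages, 17 rose in STAM livers at 10 weeks (background 25.2%) and 12 at 4 weeks (background 7.79%), and 4 had a positive difference (background 8.89%). The list summed to 396 to 913 CPM in 10-week STAM livers and 199.7 to 313 CPM in 10-week controls. At 4 weeks the sums overlapped, with 599.7 to 793 CPM in STAM livers and 459.5 to 1001 CPM in controls. Lpl alone made up a large part of the 4-week sums, so they do not describe the other markers. The genes with a positive difference were Lpl, lipoprotein lipase, the lysosomal protein Cd63 (2.24, 95% interval 1.33 to 3.15, limma adjusted p = 0.00174), the fractalkine receptor Cx3cr1 (2.74, 95% interval 1.58 to 3.9, limma adjusted p = 0.002) and the integrin Itgax (1.61). Lpl (chromosome 8, 68880555 to 68906932, plus strand, mm10) stood at 6.72, 7.23, 6.11, 6.39 and 7.28 log2 CPM in the 10-week STAM livers, against 4.76, 4.97, 5.04, 4.83 and 5.14 in the 10-week controls. The 4-week values were 8.5, 8.04, 8.01, 8.15 and 8.08 log2 CPM in the 4-week STAM livers, against 8.01, 9.26, 9.03, 8.87 and 9.06 in the 4-week controls. Both 4-week groups lay above every 10-week liver, and the 10-week STAM livers lay above every 10-week control. The effect was 1.8 at 10 weeks and -0.69, not called, at 4 weeks (limma adjusted p = 0.0517), a difference of 2.49 (95% interval 1.82 to 3.15, limma adjusted p = 7.79e-05). Gpnmb, a protein of lipid-laden macrophages, rose 60.6-fold at 10 weeks and 19.5-fold at 4 weeks, and its difference of 1.64 was not called (limma adjusted p = 0.131), but it was called without 10-week STAM replicate 1 (adjusted p = 0.0478) or 10-week control replicate 1 (adjusted p = 0.0337), against up to 0.233 in the other such fits. Trem2, a lipid receptor of the same cells, had effects of 2.96 at 10 weeks and 1.97 at 4 weeks (limma adjusted p of the difference = 0.204). Of 11 Kupffer cell markers, 2 rose (background 25.2%) and 2 fell (background 22.7%) in STAM livers at 10 weeks. At 4 weeks 6 rose (background 7.79%) and 1 fell (background 4.41%). Among them the scavenger receptor Marco (-1.34, 95% interval -2.14 to -0.54, limma adjusted p = 0.0193) and C6 had a negative difference (background 11.2%). Clec4f, the defining marker of resident Kupffer cells, had a difference of -0.34 (limma adjusted p = 0.218). Timd4 had -1.08 (limma adjusted p = 0.0684) and was called without 10-week STAM replicate 1 (adjusted p = 0.0322) or 10-week STAM replicate 5 (adjusted p = 0.0316), against up to 0.111 in the other such fits.

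Of 20 inflammatory cytokines and chemokines 0 were called in the difference by limma (background 20%), also with voom weights, and 3 had an unadjusted p under 0.05. With total-read scaling 3 differences were positive and with quantile normalization 1 was negative. In STAM livers 11 were higher (background 25.2%) and 2 lower (background 22.7%) at 10 weeks. At 4 weeks 7 were higher (background 7.79%) and 1 lower (background 4.41%). Ccl2, which recruits monocytes, had effects of 0.99 at 10 weeks and 1.46 at 4 weeks, and the interval of its difference was -1.62 to 0.69. Tnf, tumour necrosis factor, had a difference of -0.04 (95% interval -1.14 to 1.06, limma adjusted p = 0.97), with a positive sign under total-read scaling. Of 15 T and NK cell markers, 1 had a positive difference, Ncr1 (2.46, lost with quantile normalization), against a background of 8.89%. These markers summed to 10.3 to 18.3 CPM in 10-week STAM livers and 5.61 to 8.23 CPM in 10-week controls. At 4 weeks they summed to 10.3 to 14.7 CPM in STAM livers and 6.70 to 10.5 CPM in controls. Among B cell markers 1 of 9 had a positive difference, Cd79b (0.87, lost in 14 of 20 fits without 1 library, adjusted p 0.0249 to 0.0864, highest without 4-week control replicate 3). Among neutrophil markers 1 of 10 did, Ngp (5.14, lost in 7 of 20 fits without 1 library, adjusted p 0.00386 to 0.0547, highest without 4-week control replicate 2). Both shares were near the background of 8.89%. Ngp had 64 reads in 10-week STAM livers and 3 in 10-week controls, a ratio of 18.7 (exact counting interval 6.11 to 92.9), and with a prior of 2 reads its difference was 2.91 and not called. Erythroid markers had 2 positive, the anion exchanger Slc4a1 (3.74) and Car2 (0.88), and 2 negative, the haem enzyme Alas2 (-1.04, lost with quantile normalization) and the transferrin receptor Tfrc (-1.52, lost in 10 of 20 fits without 1 library, adjusted p 0.0169 to 0.0612, highest without 4-week STAM replicate 2), of 9, against backgrounds of 8.89% and 11.2%. The erythroid list summed to 141 to 189 CPM in 10-week STAM livers, 216 to 284 CPM in 10-week controls, 169.9 to 252 CPM in 4-week STAM livers and 126 to 251 CPM in 4-week controls. Of 6 tested adipocyte markers, Fabp4 and the lipase Lipe (0.67, lost in 9 of 20 fits without 1 library, adjusted p 0.00826 to 0.0718, highest without 4-week control replicate 2) were positive (background 8.89%) and Car3 (-1.47) negative (background 11.2%), while the defining markers Adipoq, Lep, Plin1 and Retn lay below the filter on low values.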

How the data were processed

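RNA-seq of whole liver was used, made from poly(A) RNA with a stranded paired-end kit, per the labels' protocols. Reads were aligned with STAR 2.4.2a to mm10, per the submitters' processing notes; for the counting program, the annotation and the treatment of reads shared by near-identical genes, the sources used here give nothing. The authors deposited log2 CPM for each sample, in 1 table per age, each scaled by itself. From the values, each holds a prior of 0.25 reads, and whole reads were recovered for 100% of values (tolerance 0.05 reads), with 3 reads equal to at most 0.198 CPM. Libraries within a group differed by more than sampling noise (lowest chi-square per degree of freedom 11.4). Deposited gene starts match RefSeq starts after adding 1 for 10883 of 19400 genes, so coordinates were printed 1-based.

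The deposited log2 values of 20 libraries were fitted in 1 model of 4 group means with limma 3.58.1 (trend and robust, statmod 1.5.0, R 4.3.3), two-sided, with Benjamini-Hochberg adjustment over 15022 genes and a threshold of 0.05. A count model was not used because the deposited unit is a log. Intervals are 95%, unadjusted. Exact counting intervals of read ratios cover counting error only. In simulated data on 15022 genes, 94% of 100 changes of 1 log2 unit and 99% of 100 changes of 2 log2 units were called, with 9 false calls among 202. The changed genes lay above the median level, the spread of the most variable genes was capped, and no library was made to stand apart. These shares therefore may not hold for lower or more variable genes, and an uncalled gene may still differ. Members, gene lists and tests were chosen with earlier results of these data known. The 36 lists hold 663 genes, of which 637 were tested and 21 stand in more than 1 list. Genes were named as the 10 highest and the 10 lowest called differences above the median level with a constant sign without any 1 library, up to 3 called members per list with the largest size, the 10 largest opposite effects above the median level, and a set of anchor genes. Some genes that this rule names are not reported here. The remaining named genes, chiefly other called members of lists, were chosen after their values were seen. Alternatives were other scalings, filters, priors and variance models, a replicate block and leaving out libraries.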

Additional observations from a re-analysis of the deposited data

Results flagged for a closer look

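Among 724 groups of 5 libraries, 4 groups for each of the 181 genes named here, 56 held a library whose gap to the nearest other library was over 0.71 of the range of the group, Dixon's 95% critical value. That is 7.73%, where chance flags about 1 in 20 groups. Of these, 19 fell in 4-week control replicate 1, 10 in 10-week STAM replicate 5, 8 in 10-week control replicate 1 and the rest in other libraries. Values are log2 CPM as deposited, with the range of the other 4 libraries of the group.

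In 4-week control replicate 1, Mmd2 was 4.2 against 5.16 to 5.54, Cyp2b10 was 7.14 against 4.83 to 5.32 and Cyp2c40 was 8.48 against 8.83 to 8.96. There, Cenpf was -0.92 against 3.67 to 4.66, Cdc20 was -0.35 against 3.94 to 5.23 and Plk1 was -1.11 against 2.56 to 3.44. Also there, Akr1c18 was -0.75 against 2.71 to 3.61, Cyp3a41a was -0.35 against 3.29 to 4.31 and Elovl5 was 7.96 against 9.46 to 9.91. Further, Tm7sf2 was 5.31 against 6.66 to 6.92, Cyp4a32 was 6.54 against 5.6 to 5.87 and Car3 was 9.34 against 10.64 to 10.85. In the same library, Mki67 was 1.64 against 6.27 to 6.96, Scd1 was 10.96 against 13.95 to 14.4 and Fasn was 8.2 against 10.01 to 10.42. In addition, Sqle was 2.6 against 6.39 to 7.28, Ube2c was -0.92 against 2.66 to 3.5 and Cyp27a1 was 8.64 against 8.14 to 8.27. In addition, Mest was 2.46 against 3.48 to 3.83. In 10-week STAM replicate 5, Cyp3a16 was 2.4 against 1.63 to 1.74, Elovl3 was 4.95 against 6.5 to 6.9 and Acot2 was 6.66 against 4.71 to 5.24. There, Cyp3a11 was 10.79 against 10.06 to 10.21, C9 was 7.89 against 8.68 to 8.86 and Irf7 was 5.27 against 5.85 to 5.93. Also there, Timd4 was 1.21 against 2.8 to 3.4, Cd36 was 8.86 against 8.4 to 8.52 and Bcl6 was 3.59 against 4.47 to 4.76. Further, Ucp2 was 7.5 against 6.97 to 7.1. In 10-week control replicate 1, Mt2 was 5.71 against 0.46 to 1.59, Mt1 was 5.48 against 2.07 to 2.52 and Oit3 was 5.0 against 5.45 to 5.57. There, Cry1 was 3.38 against 4.14 to 4.27, Gpnmb was -0.72 against -3.22 to -2.67 and Alb was 15.71 against 16.17 to 16.24. Also there, Stab2 was 6.05 against 6.56 to 6.73 and Cdkn3 was -6.39 against -4.06 to -3.24. In 4-week STAM replicate 2, H2-K1 was 10.08 against 9.92 to 9.96, Creld2 was 5.62 against 4.84 to 4.92 and Hsph1 was 6.34 against 5.65 to 5.69. There, Ly6d was 4.96 against 5.59 to 5.74. In 4-week STAM replicate 5, Cyp3a16 was 4.47 against 4.89 to 5.05, Clec4f was 7.37 against 7.66 to 7.77 and Pnpla2 was 6.31 against 5.94 to 6.03. In 4-week STAM replicate 1, Lpl was 8.5 against 8.01 to 8.15 and Rnf43 was 4.13 against 4.4 to 4.46. In 10-week STAM replicate 3, Cenpf was 0.56 against 1.65 to 2.09 and Cdc20 was 0.40 against 1.75 to 2.13. In 4-week control replicate 3, Vwf was 4.98 against 3.08 to 3.62 and Cyp7a1 was 3.81 against 7.24 to 8.0. In 4-week STAM replicate 4, Tap2 was 4.19 against 4.51 to 4.6. In 4-week control replicate 5, Apoa4 was 6.6 against 6.89 to 6.96. In 10-week STAM replicate 4, Krt23 was 3.72 against 4.93 to 5.27. In 10-week control replicate 5, Thbs1 was -1.44 against -0.39 to 0.0027. In 10-week control replicate 3, Oas1a was 2.63 against 1.49 to 1.8. In 4-week control replicate 4, Timp1 was -6.25 against -2.97 to -1.99.

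A difference of the STAM effect between the ages was called in 3011 genes. The genes named for opposite effects at the 2 ages, called in both and above the median level, had differences of 3.49 for Socs2, -3.03 for Cyp3a16, -1.76 for Orm1, -2.0 for Hsph1 and 1.96 for Wsb1. They were 1.89 for Vldlr, -1.84 for C9, 1.79 for Pde4b, 1.79 for Fmo4 and -1.63 for Aox3. Socs2 and Vldlr were higher in STAM livers at 10 weeks and lower at 4 weeks, and so were Wsb1, Pde4b and Fmo4, while the other 5 were lower at 10 weeks and higher at 4 weeks.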

How the results depend on the processing

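The count of 3011 genes was 2071 to 3437 under the alternatives that keep all libraries and 2435 (without 4-week control replicate 2) to 3802 (without 4-week control replicate 1) when 1 library was left out. With total-read scaling 2898 were higher and 539 lower in the difference, 6962 higher and 958 lower at 10 weeks, and 326 lower at 4 weeks, with median shifts of 0.33 at 10 weeks and 0.09 at 4 weeks. Testing only genes above the 50th percentile, which leaves 9969, gave 1988 higher at 10 weeks and 732 higher at 4 weeks. Within an age, same-numbered STAM and control samples did not deviate together (correlations -0.12 to 0.00 over 10 pairs, 0 best with their own number), so the numbers do not pair the samples. A fit with the replicate number as a block called 2071 genes in the difference, 13 of the matrix genes, 9 of the fat oxidation genes upward, and 1167 genes at 4 weeks, 361 of them lower. Of 181 genes named here 158 were called, and 135 of these stayed called in each of 20 fits without 1 library. Calls lost were with total-read scaling 21 (Saa1, Ifit1, H2-K1, Tfrc, Tm7sf2, Slc2a1, Nr0b2, Pigr, Cps1, Cry1, Nfil3, Irf7, Alb, H2-D1, Acadsb, Plin5, Creb1, Ddit3, Otc, Rnf43 and Igfals), and with quantile normalization 30 (Saa1, H2-K1, Ncr1, Cd79b, Ngp, Tfrc, Alas2, Thbs1, Vwf, Eda2r, Cyp2b13, Elovl3, Nr0b2, Psat1, Nupr1, Pigr, Cps1, Aldh1a1, Trf, Mup20, Alb, Hsp90b1, B2m, Ube2c, Acadsb, Plin5, Creb1, Otc, Rnf43 and Igfals). Lost with voom weights were 13 (Saa1, Cd79b, Ngp, Thbs1, Cenpf, Cdc20, Plk1, Eda2r, Akr1c18, Elovl3, Pigr, Ube2c and Ly6d), without the filter, where more genes are tested, 19 (Saa1, Ngp, Tfrc, Thbs1, Vwf, Eda2r, Cyp2b13, Acot2, Pklr, Slc2a1, Nr0b2, Nupr1, Pigr, Cps1, Lipe, Ube2c, Plin5, Igfals and Stab2), with a prior of 2 reads 1 (Ngp), with joint scaling 3 (Saa1, Slc2a1 and Pigr), and without robust estimation 2 (Trf and Alb). Under the block 27 (Mt2, Saa1, Cd79b, Tfrc, Thbs1, Col1a2, Col3a1, Vwf, Cdc20, Eda2r, Elovl3, Fads2, Slc2a1, Nr0b2, Nupr1, Pigr, Cps1, Cry1, Car3, Mup20, Alb, Cyp17a1, Plin5, Otc, Rnf43, Stab1 and Stab2) were lost, and without 3 libraries together, chosen after seeing the data, 12 (Ifit1, Marco, Cd79b, Ngp, Alas2, Cyp2b13, Elovl3, Nr0b2, Fmo2, Igfbp2, Igfals and Stab2). Gains were Col1a1 and Afp with total-read scaling, and Col1a1 without robust estimation. Without the 3 libraries Timd4, Col1a1, Mki67, Afp, Cdkn1a and Scd1 were gained. Signs turned only in genes that were not called: Tnf, 0.17 with total-read scaling, 0.0081 with a prior of 2 reads, and -0.22 to 0.17 without 1 library; Cd36, 0.18 with total-read scaling, 0.14 with quantile normalization and -0.21 to 0.16 without 1 library. They also turned in Cyp7a1, 0.091 with total-read scaling, 0.036 with quantile normalization and -0.45 to 0.63 without 1 library, in Acta2, 0.87 without the 3 libraries and -1.07 to 0.26 without 1, and in Sqle, 0.25 without the 3 libraries. The cause of these changes was not tested. Depth limits the lowest genes, since 3 reads are at most 0.198 CPM.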
